A study of Mus musculus with 2 samples.

Results

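Trans-synaptic adhesion genes encode the cell-surface proteins that bind across the synaptic cleft and hold the sending and receiving neuron together. The genes described here were chosen by name, as the rows of both count files whose symbol is in a list of 49 such genes, and all 49 were found among 32531 named genes. The RNA came from the ventral striatum of adult, untreated mice of the Stard5-TRAP line JX5852, in which cells that use Stard5 regulatory sequence carry ribosomal protein L10a fused to EGFP. Translating ribosome affinity purification (TRAP) pulls those tagged ribosomes, with the messenger RNA bound to them, out of homogenised tissue with antibodies against EGFP. The study holds 1 group of 2 libraries, replicates 1 and 2, both of the pulled-down RNA and both from the same line and tissue. No library of the whole tissue, of another line or of a treatment was analysed here, so the values are levels in pulled-down RNA and not enrichment over the tissue. Which cells carry the tag follows from the transgene, and the labels do not say whether a replicate is 1 animal or a pool, so the spread between the libraries may be technical.

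At a synapse, presynaptic receptors act as hubs. Neurexins bind neuroligins, LRRTMs and other postsynaptic partners, and receptor tyrosine phosphatases of the LAR type bind Slitrks, interleukin-1 receptor accessory proteins and some Lrfn proteins. Other families bind like molecules on the facing cell, as SynCAMs and NCAM do, or regulate these contacts, as MDGA proteins do by covering neuroligins. Spiny projection neurons send the GABAergic output of the striatum. They receive both glutamatergic and GABAergic synapses.

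Levels are given as CPM, reads per 1000000 reads assigned to named genes. The libraries held 25830282 and 29574781 such reads. Rn45s had the most of these reads, 6.89% in replicate 1 and 6.21% in replicate 2. The threshold for detection was 1 CPM in each library, or 25.8 and 29.6 reads in replicates 1 and 2. CPM of different genes also depends on the length of the transcript, so genes are compared per kilobase, counted over all annotated exons of a gene merged. Merged exons can be longer than the transcripts in use. Changes of order with the longest annotated transcript as the length are given for the leading genes and the highest family sums. Other places changed too. Of 10 spiny projection neuron markers all were above 100 CPM in both libraries, among them Arpp21 at 2550 ± 688 CPM and Gnal at 2482 ± 281 CPM (SD, n = 2), and Penk was the highest of them per kilobase, at a mean of 898 CPM per kilobase. Glial RNA was present too: summed over the list, 10 astrocyte markers stood at 1151 CPM in replicate 1 and at 3444 CPM in replicate 2, and 10 oligodendrocyte markers at 962 and 1486 CPM. In bulk pulled-down RNA, fewer cells of a type and less RNA per cell cannot be told apart. Stard5, whose regulatory sequence drives the tag, stood at 166 and 54.9 CPM in replicates 1 and 2, and Rpl10a, the gene of the tagged protein, at 99.5 and 57.5 CPM.

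Most of the adhesion genes were well represented in the ribosome-bound RNA. Of the 49, 47 (95.9%) were detected, against 38.0% of all named genes, 39 reached 10 CPM in both libraries and 16 reached 100 CPM in both. Their summed share of reads in named genes was 0.494% in replicate 1 and 0.596% in replicate 2. Over the list, the median of the mean levels was 79.8 CPM, and 23.1 CPM over all detected genes. Per kilobase of exon the medians were 9.85 CPM for the 49 genes and 5.31 CPM for all detected genes, and 33 of the 47 detected members lay above the midpoint of the detected genes per kilobase. The genes not detected in both libraries were Lrfn1 and Lrfn2.

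**Figure D1:**
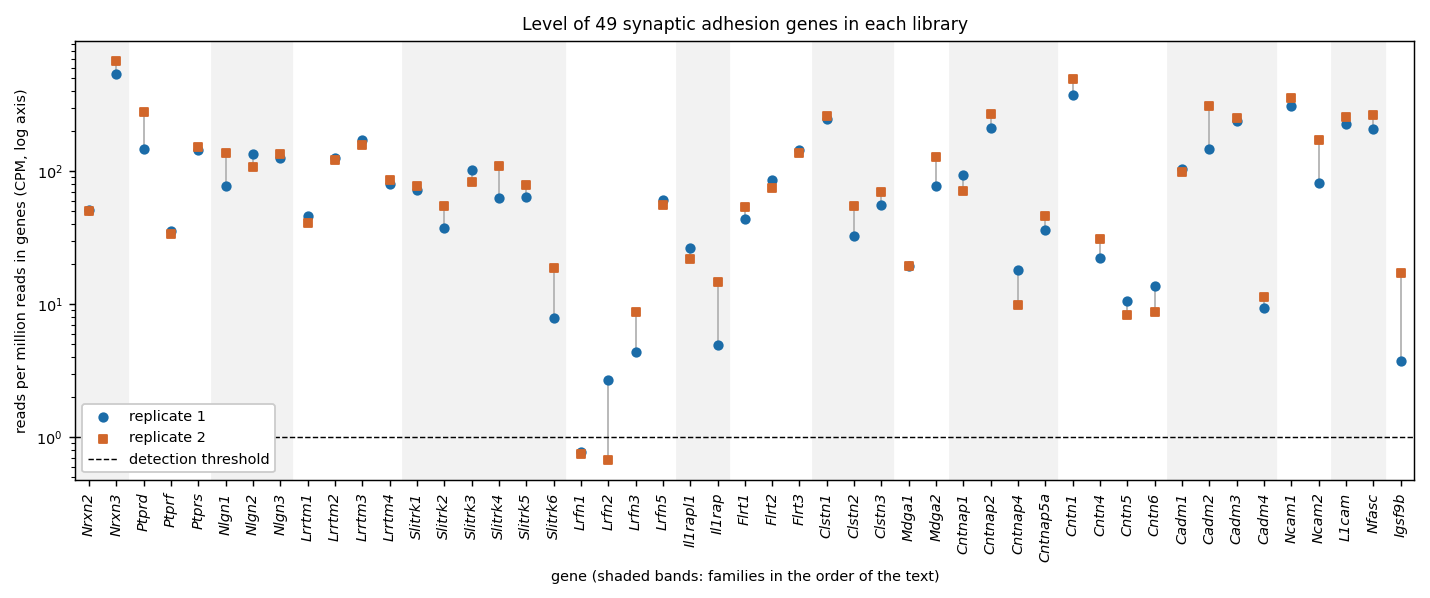
Level of each of the 49 adhesion genes in CPM on a log axis, with replicate 1 as circles and replicate 2 as squares, joined by a line, and families in shaded bands. Levels run from 0.676 CPM for Lrfn2 to 676 CPM for Nrxn3, both in replicate 2. For most genes the 2 libraries lie close together, while Igsf9b and Il1rap, higher in replicate 2, and Lrfn2, higher in replicate 1, show long lines.

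Among the presynaptic hubs, Nrxn3 carried nearly all the reads of the pair of neurexin genes on the list. Nrxn3 (ENSMUSG00000066392.11, chromosome 12, 88722876 to 90334935 on the plus strand of GRCm38, protein-coding) stood at 541 CPM in replicate 1 (exact Poisson 95% interval 532 to 550) and 676 CPM in replicate 2 (667 to 686). Nrxn2 stood at 50.6 and 50.2 CPM. Nrxn3 was far above its paralog in both libraries. Per kilobase of exon Nrxn3 lay 3.72 ± 0.23 log2 units above Nrxn2 (SD, n = 2), 3.55 in replicate 1 and 3.88 in replicate 2. Nrxn3 had 92.9% ± 1.07 of the per-kilobase level of the pair.

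The count of Nrxn3 pools all its transcripts. Neurexin genes make long and short forms from separate promoters. The RefSeq table lists 3 start windows for Nrxn3, far apart within the gene, which the per-gene counts cannot separate. None lies at the GENCODE start of the gene given above, and whether each is a promoter was not tested. The windows are shown because the count of a gene in the first places of the list sums over them. Each run is 300 bases of GRCm38.p6, from 250 bases before a RefSeq start to 50 after it, 5′ to 3′ on the gene's strand, with CG dinucleotides in capitals.
Nrxn3, chr12:88794254-88794553, plus strand: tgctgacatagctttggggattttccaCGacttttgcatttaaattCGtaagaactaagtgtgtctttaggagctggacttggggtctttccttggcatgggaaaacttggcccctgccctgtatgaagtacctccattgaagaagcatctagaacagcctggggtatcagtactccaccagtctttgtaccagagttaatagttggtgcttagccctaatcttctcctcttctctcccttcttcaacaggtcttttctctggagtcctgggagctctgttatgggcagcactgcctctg
Nrxn3, chr12:88953140-88953439, plus strand: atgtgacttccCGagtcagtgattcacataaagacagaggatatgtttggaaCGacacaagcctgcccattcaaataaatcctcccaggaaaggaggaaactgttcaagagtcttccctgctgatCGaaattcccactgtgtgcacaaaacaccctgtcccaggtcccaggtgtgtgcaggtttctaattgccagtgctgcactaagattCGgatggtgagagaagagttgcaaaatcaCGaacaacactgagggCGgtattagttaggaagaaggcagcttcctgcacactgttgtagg
Nrxn3, chr12:89812233-89812532, plus strand: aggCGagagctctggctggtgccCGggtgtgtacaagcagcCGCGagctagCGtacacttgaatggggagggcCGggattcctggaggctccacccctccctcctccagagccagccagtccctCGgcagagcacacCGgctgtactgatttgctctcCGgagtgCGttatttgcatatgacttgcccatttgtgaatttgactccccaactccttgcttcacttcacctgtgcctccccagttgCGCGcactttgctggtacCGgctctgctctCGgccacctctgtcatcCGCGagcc
The windows hold 2, 6 and 16 CG dinucleotides in that order, and the median over 32851 RefSeq windows of this length is 7.

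The LAR-type phosphatases are the other presynaptic hub. Ptprs stood at 143 and 152 CPM in replicates 1 and 2, and Ptprf at 35.2 and 33.9 CPM. Ptprd, the partner of Slitrk3 and Il1rapl1, stood at 146 and 277 CPM. The values of Ptprs and Ptprf nearly coincided between libraries while those of Ptprd did not. The order of the leading pair changed: per kilobase, Ptprs was 0.58 log2 units above Ptprd in replicate 1 and 0.25 below it in replicate 2 (a Ptprs minus Ptprd difference of -0.25), so their mean difference of 0.16 ± 0.59 did not exceed the spread. Without division by length Ptprd led, by a mean Ptprs minus Ptprd difference of -0.44.

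Neuroligins, the postsynaptic partners of neurexins, were all present. Nlgn2, the form of inhibitory synapses, stood at 134 and 107 CPM in replicates 1 and 2. Nlgn3, found at both excitatory and inhibitory synapses, stood at 126 and 134 CPM, and Nlgn1, the form of excitatory synapses, at 77.5 and 138 CPM. Per kilobase the order Nlgn2, Nlgn3, Nlgn1 held in both libraries, with shares of 54.6%, 31.9% and 13.6% of the summed per-kilobase level in replicate 1 and 42.9%, 33.4% and 23.8% in replicate 2. Nlgn2 lay 0.57 ± 0.29 log2 units above Nlgn3 (SD, n = 2), but as plain CPM the mean difference was -0.11. Of the annotated exon bases of Nlgn3, 41.2% overlap another GENCODE gene, Gm21986, which is not a row of the files.

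LRRTM proteins are leucine-rich repeat partners of neurexins at excitatory synapses, and the 4 genes gave some of the most even values between libraries. Lrrtm3 stood at 170 and 156 CPM, Lrrtm2 at 125 and 121 CPM, Lrrtm4 at 79.7 and 85.1 CPM, and Lrrtm1 at 46.1 and 40.7 CPM. The library ratios of all 4 lay between -0.15 and 0.12 on the log2 scale. Per kilobase Lrrtm3 led Lrrtm2 by 0.91 ± 0.05 log2 units, and it held 45.0% of the summed per-kilobase level of the family in replicate 1 and 43.7% in replicate 2. Of the exon bases of Lrrtm4, 25.1% overlap Gm4409, also not a row of the files. Summed over its members the LRRTM family stood at 86.6 ± 3.46 CPM per kilobase, with the calsyntenins at 75.0 ± 6.78 and the SynCAMs at 71.4 ± 13.0. These sums depend on how many members a family has on the list, and their order on the length used: per kilobase of longest transcript the SynCAMs stood at 97.2 ± 13.5 and the LRRTMs at 96.8 ± 3.50.

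Slitrk proteins bind LAR-type phosphatases, and all 6 genes were detected. Slitrk3, a protein of inhibitory synapses, stood at 101 and 82.4 CPM in replicates 1 and 2. Slitrk1, which has been studied in Tourette syndrome, stood at 71.9 and 77.5 CPM, and Slitrk5, whose loss gives compulsive grooming in mice, at 64.2 and 78.9 CPM. Per kilobase Slitrk3 was the highest of the family in both libraries, at 20.9 and 17.0 CPM per kilobase, and exceeded Slitrk1 by 0.43 ± 0.28 log2 units. Slitrk4 stood at 63.1 and 109 CPM and Slitrk2 at 37.6 and 54.8 CPM. Slitrk6 was the lowest, at 7.82 and 18.8 CPM, low in replicate 1 and higher in replicate 2.

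The Lrfn family, also called SALM proteins, had the lowest members of the list. Lrfn5, which binds LAR-type phosphatases, stood at 60.8 and 55.7 CPM, and Lrfn3 at 4.34 and 8.79 CPM. Lrfn1 had 20 and 22 reads, or 0.774 CPM (95% interval 0.473 to 1.20) and 0.744 CPM (0.466 to 1.13). Lrfn2 had 69 and 20 reads, or 2.67 and 0.676 CPM. The low pair lay at or under the detection threshold in at least 1 library, so little can be read from their difference. Lrfn5 held 71.5% of the per-kilobase level of the family in replicate 1 and 62.9% in replicate 2.

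The interleukin-1 receptor accessory genes were low. Il1rapl1, whose loss causes X-linked intellectual disability in humans and which binds Ptprd, stood at 26.4 and 21.9 CPM. Il1rap, which encodes the shared interleukin-1 co-receptor and a neuronal form that binds Ptprd, stood at 4.96 and 14.6 CPM, lower in replicate 1. Per kilobase of exon Il1rapl1 lay above Il1rap by 2.70 log2 units in replicate 1 and 0.86 in replicate 2. The order was not settled, since per kilobase of longest transcript the Il1rapl1 minus Il1rap difference was 1.40 in replicate 1 and -0.43 in replicate 2, a mean of 0.48 ± 1.29 (SD, n = 2).

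FLRT proteins bind latrophilins across the cleft. Flrt3 stood at 145 and 138 CPM, Flrt2 at 85.1 and 74.6 CPM, and Flrt1 at 43.6 and 53.7 CPM. The first of these was the clear leader per kilobase in both libraries, 1.49 ± 0.08 log2 units above Flrt2 (SD, n = 2), with 60.9% ± 1.14 of the summed per-kilobase level.

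Calsyntenins are cadherin-type proteins, of which Clstn1 also links cargo to kinesin for transport along axons. Clstn1 (ENSMUSG00000039953.13, chromosome 4, 149586468 to 149648899, plus strand) stood at 248 and 261 CPM and was first of the list per kilobase of exon in both libraries, at 53.2 and 56.0 CPM per kilobase. Per kilobase of longest transcript it was in place 3 in both, at 55.6 and 58.5, below Nrxn3 at 68.3 and 85.4 and Cntn1 at 66.4 and 87.1. Its level per kilobase of exon lay at percentile 95.3 of the detected genes with a length. Clstn3 stood at 55.9 and 70.0 CPM and Clstn2 at 32.8 and 55.0 CPM. Per kilobase Clstn1 exceeded Clstn3 by 2.12 ± 0.18 log2 units. Its start window is shown because it belongs to the highest gene per kilobase of exon. It also holds the most CG dinucleotides of the 49 member windows counted, 48.
Clstn1, chr4:149586218-149586517, plus strand: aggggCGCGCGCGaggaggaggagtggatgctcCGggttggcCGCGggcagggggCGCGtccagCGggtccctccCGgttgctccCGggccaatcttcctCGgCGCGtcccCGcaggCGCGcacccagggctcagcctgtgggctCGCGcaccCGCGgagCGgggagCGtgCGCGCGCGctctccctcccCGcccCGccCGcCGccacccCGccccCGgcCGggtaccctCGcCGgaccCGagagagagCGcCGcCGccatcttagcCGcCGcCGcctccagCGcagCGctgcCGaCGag

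The MDGA proteins, which bind neuroligins and keep neurexins off them, differed in level. Mdga2 stood at 77.6 and 127 CPM and Mdga1 at 19.4 CPM in each library. Per kilobase Mdga2 lay 1.41 ± 0.51 log2 units higher, in both libraries.

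Contactins are anchored to the membrane by a lipid and pair with Cntnap proteins, and the contactins on the list were dominated by 1 gene. Cntn1 (ENSMUSG00000055022.14, chromosome 15, 92051165 to 92341967, plus strand), a partner of Cntnap1 at the paranodes of myelinated axons that is also made in the oligodendrocyte lineage, stood at 376 and 494 CPM in replicates 1 and 2. Cntn4 stood at 22.1 and 30.7 CPM, Cntn6 at 13.7 and 8.76 CPM, and Cntn5 at 10.5 and 8.22 CPM. Cntn1 exceeded Cntn4 by 3.90 ± 0.06 log2 units per kilobase (SD, n = 2), a gap far larger than the spread. Among the Cntnap genes, Cntnap2, which clusters potassium channels beside the node and is linked to autism and epilepsy in humans, stood at 211 and 269 CPM. Cntnap1 stood at 92.9 and 70.4 CPM, Cntnap5a at 36.0 and 46.0 CPM, and Cntnap4, a gene of interneurons in particular, at 17.9 and 9.91 CPM. Per kilobase Cntnap2 exceeded Cntnap1 by 0.38 log2 units in replicate 1 and 1.13 in replicate 2, and held 48.4% of the summed per-kilobase level in replicate 1, where Cntnap1 held 37.1%.

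SynCAMs, encoded by the Cadm genes, bind each other across the cleft. Cadm3 stood at 239 and 251 CPM and Cadm1 at 103 and 99.0 CPM, each nearly equal in both libraries. Of the exon bases of Cadm3, 4.98% overlap Ackr1, itself counted at 1558 and 1485 reads in replicates 1 and 2. The part of this overlap in the level of Cadm3 was not tested. Cadm2 stood at 148 CPM in replicate 1 (95% interval 143 to 152) and 308 CPM in replicate 2 (301 to 314). Cadm4 was low at 9.29 and 11.3 CPM. Cadm3 led per kilobase in both libraries, but its margin over Cadm2 went from 1.13 log2 units in replicate 1 to 0.14 in replicate 2.

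The NCAM and L1 families are adhesion molecules of the immunoglobulin type. Ncam1 stood at 310 and 352 CPM, and its paralog Ncam2 at 81.9 and 170 CPM. L1cam, a gene of axon growth, stood at 227 and 253 CPM, and Nfasc, which organises the axon initial segment and has a glial form, at 208 and 266 CPM. Ncam1 exceeded Ncam2 by 1.87 ± 0.62 log2 units per kilobase, and L1cam exceeded Nfasc by 0.97 ± 0.14, though as plain CPM the latter pair differed by only 0.03. Igsf9b, a further immunoglobulin-type protein, of inhibitory synapses, stood at 3.72 and 17.2 CPM, the least even pair of values among the detected members.

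Over the whole list, the upper end of the order per kilobase was shared by the libraries and the middle was not resolved. The same 7 genes, Clstn1, Nrxn3, Cntn1, Lrrtm3, Ncam1, Cadm3 and L1cam, filled the first 7 places in each library, and Clstn1 and Nrxn3 were first and second in both. Full agreement ended there: place 8 was Flrt3 in replicate 1 and Cadm2 in replicate 2, and Cadm2 was in place 15 in replicate 1. With the longest transcript as the length the same 7 genes filled the first 7 places in each library. The leading pair was then Nrxn3 and Cntn1, in that order in replicate 1 and reversed in replicate 2. Of the 46 pairs of neighbours in the mean order of the 47 detected genes, 12 kept their order in both libraries and 8 of those differed by more than the SD. Cntn1 and Lrrtm3, Lrrtm3 and Ncam1, and each pair of neighbours from Cntnap2 down to Slitrk4 changed places between libraries. Mean levels ran from 54.6 CPM per kilobase for Clstn1 to 0.194 for Lrfn1. The rank correlation of the 49 per-kilobase levels between libraries was 0.958, a description over genes that share length and tissue. With 2 libraries, an exact sign-flip test over libraries cannot go below p = 0.5, so these orders carry no test.

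**Figure D2:**
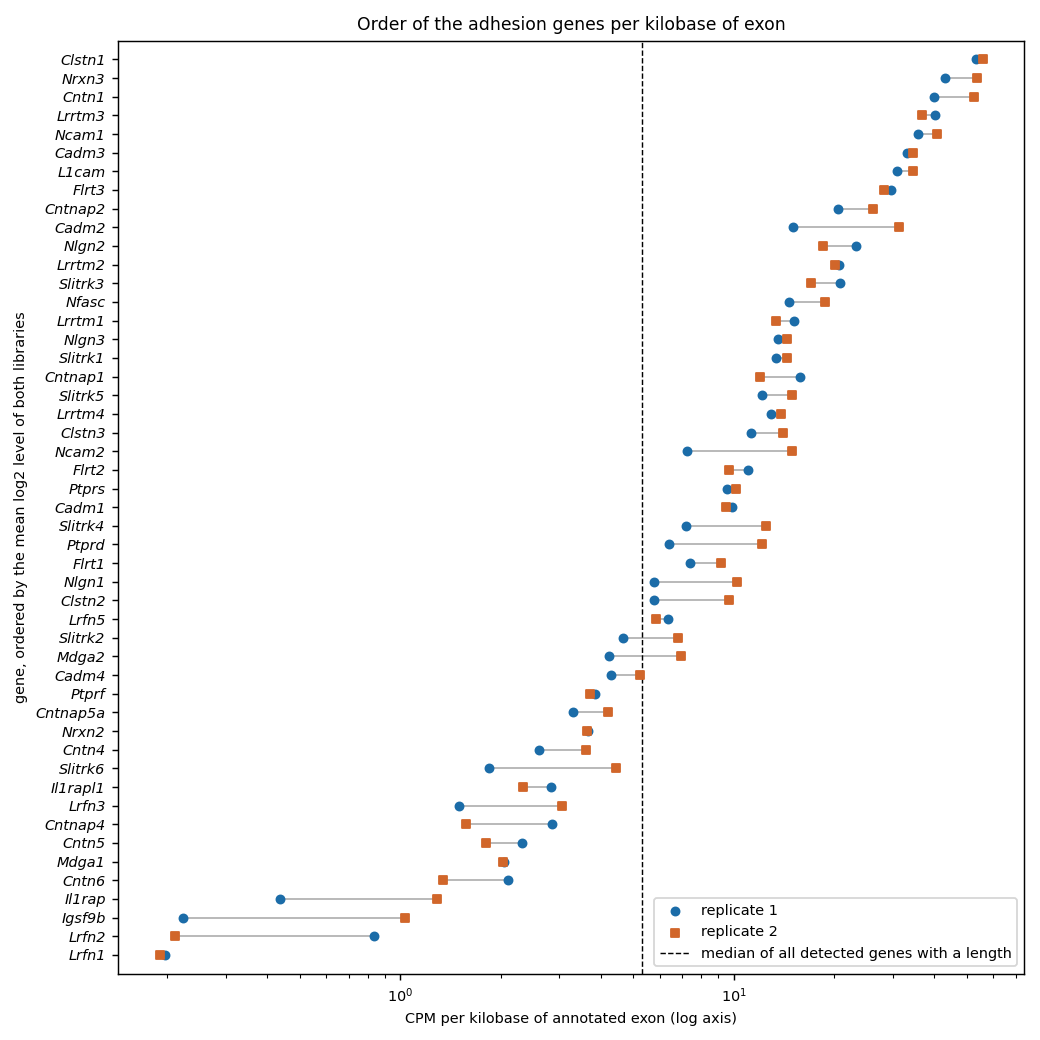
Level per kilobase of annotated exon on a log axis for the 49 genes, ordered by the mean log2 level, with replicate 1 as circles, replicate 2 as squares and the median of all detected genes as a dashed line. Clstn1 is at the top at 53.2 and 56.0 CPM per kilobase. Wide gaps between the libraries are seen for Cadm2, Ncam2, Il1rap and Igsf9b, higher in replicate 2, and for Lrfn2, higher in replicate 1.

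The libraries belong to the same group, so the next values describe how well they repeat each other and not a response. For each detected gene, the reads of both libraries entered a two-sided exact binomial test with TMM-scaled library sizes, which counts reads only and takes in no spread between libraries. A gene was called at a Benjamini-Hochberg adjusted p below 0.05 over all 12374 detected genes and at least a 2-fold ratio. Over all detected genes 17.4% were called: 9.57% had more reads in replicate 2 and 7.78% in replicate 1. Of the 47 members tested, 6 (12.8%) were called higher in replicate 2, a share near the background of 9.57%, and 0 higher in replicate 1. At an unadjusted p below 0.05 in the same exact test and with no limit on the fold, 30 members were higher in replicate 2 and 11 in replicate 1, where 39.6% and 40.3% of all detected genes were. Ratios of 34 of the 47 lay within 1.5-fold either way. The members' median log2 ratio, replicate 2 over replicate 1, was 0.18, and that of all detected genes was -0.0024.

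Genes called higher in replicate 2 were Igsf9b, Il1rap, Slitrk6, Cadm2, Ncam2 and Lrfn3, which come from 6 different families. Igsf9b had 96 reads in replicate 1 and 510 in replicate 2, a log2 ratio of 2.24 (95% counting interval 1.92 to 2.57, adjusted p = 5.26e-58 in the exact binomial test). Il1rap had 128 and 432 reads and a ratio of 1.59 (1.30 to 1.88), and Slitrk6 202 and 555 reads and 1.29 (1.05 to 1.53). Those 3 genes and Lrfn3, with 112 and 260 reads and a ratio of 1.05 (0.72 to 1.38), were low in both libraries. Cadm2, with 3812 and 9099 reads, and Ncam2, with 2115 and 5026 reads, were abundant, with ratios of 1.09 (1.03 to 1.14) and 1.08 (1.01 to 1.15). Lrfn3 was just inside the 2-fold limit and Ptprd, at 0.95, just outside it. Next came Nlgn1 at 0.86, Slitrk4 at 0.82, Clstn2 at 0.77 and Mdga2 at 0.74. In the other direction Cntnap4 had the lowest ratio, -0.83 (-1.05 to -0.61), followed by Cntn6 at -0.62, and neither reached 2-fold.

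**Figure D3:**
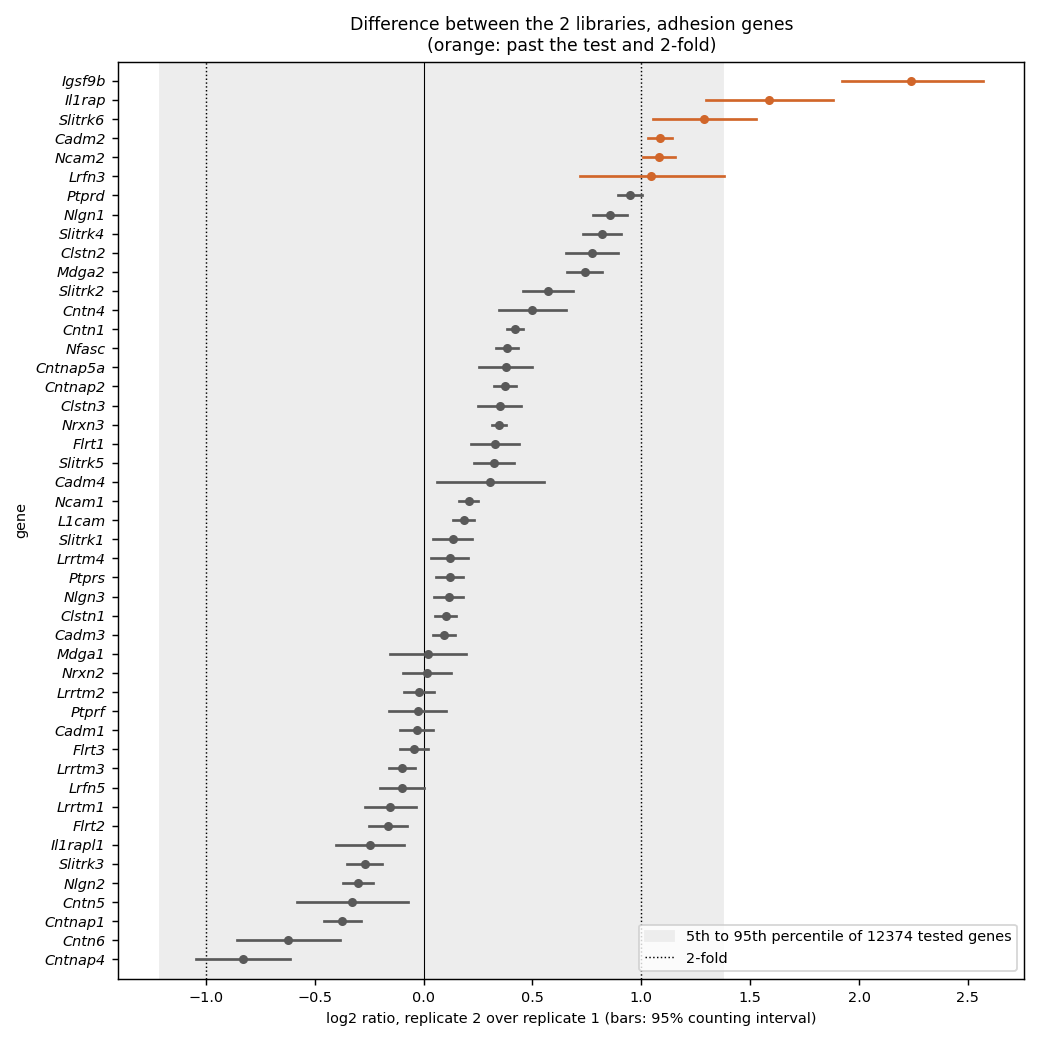
Log2 ratio of replicate 2 over replicate 1 for the 47 detected adhesion genes, with 95% counting intervals as bars, the 5th to 95th percentile of all tested genes as a grey band (-1.21 to 1.38) and 2-fold as dotted lines. Igsf9b at 2.24 and Il1rap at 1.59 lie outside the grey band, and the 6 genes called higher in replicate 2 are orange.

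Several families held members with unlike ratios. In the neuroligins Nlgn2 was at -0.30 and Nlgn1 at 0.86. In the SynCAMs Cadm1 was at -0.03 and Cadm2 at 1.09, and in the phosphatases Ptprf was at -0.03 and Ptprd at 0.95. The FLRT and LRRTM genes stayed within -0.16 to 0.33. For Nlgn1, Cadm2 and Ptprd the counting intervals lay wholly above those of their named paralogs. These pairs are the lowest and highest ratios of their families, and the intervals hold counting error only. Spread between the libraries beyond counting error, estimated with edgeR over all detected genes, was a coefficient of variation of 35.5%. No difference between paralogs can be tested with 2 libraries of 1 group.

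Markers of other cells moved between the libraries as well. Over all detected genes, 9.57% were called higher in replicate 2 and 7.78% in replicate 1. In the short lists with only 1 or 2 calls, the counts say little beside these shares. Of 10 astrocyte markers, 7 (70%) were called higher in replicate 2 and 0 in replicate 1. Their median log2 ratio was 1.67, with Slc1a2 at 741 and 2496 CPM. Of 10 oligodendrocyte markers 4 were called, all higher in replicate 2. Their median ratio was 0.74. Of 5 detected oligodendrocyte precursor markers 1 was called, Pdgfra, at 14.5 and 58.8 CPM, with a median of 0.83. The 10 spiny projection neuron markers had a median of -0.27 with 0 called. The 8 microglia markers had a median of -0.44 and summed levels of 197 and 144 CPM, and C1qb alone was called, with more reads in replicate 1. Of 5 detected endothelial and mural markers 2 were called, Pecam1 and Kdr, both with more reads in replicate 1, and the median was -0.23. The sum of that list was 32.0 and 40.6 CPM, higher in replicate 2 through Rgs5, with 177 and 393 reads, and Pdgfrb, with 25 and 300 reads and under the threshold for detection in replicate 1. Of 8 markers of other neurons 6 were detected, with a summed level of 119 and 191 CPM, a median ratio of 0.83 and Slc17a6 alone called. Slc5a7 of cholinergic neurons stood at 50.5 and 64.4 CPM, Sst at 37.8 and 69.3 CPM, and Vip was at 0 reads in both libraries. No marker of the glial and vessel lists was at 0 reads in both. Their part in the ratios of Cadm2, Ncam2, Il1rap, Igsf9b and the others was not tested.

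The ratio also moved with exon length over all genes. With detected genes split into 5 classes of merged exon length per gene, the median log2 ratio was -0.38 in the shortest class. It was 0.23 in the longest class, above 8.19 kilobases. Of the 47 tested members, 23 fell in that longest class, with a median of 0.38. Over the 47 members Pearson's r of the log2 ratio with log2 exon length was 0.33 and Spearman's rho 0.36, a description over genes that share libraries. With the trend on exon length removed, Cadm2 at 0.88 and Ncam2 at 0.84 no longer reached 2-fold, and the members' median fell to 0.07. The other 4 calls held. The share of reads that fell outside exons was 22.8% in replicate 1 and 31.0% in replicate 2, and its part in these ratios was not tested.

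**Figure D4:**
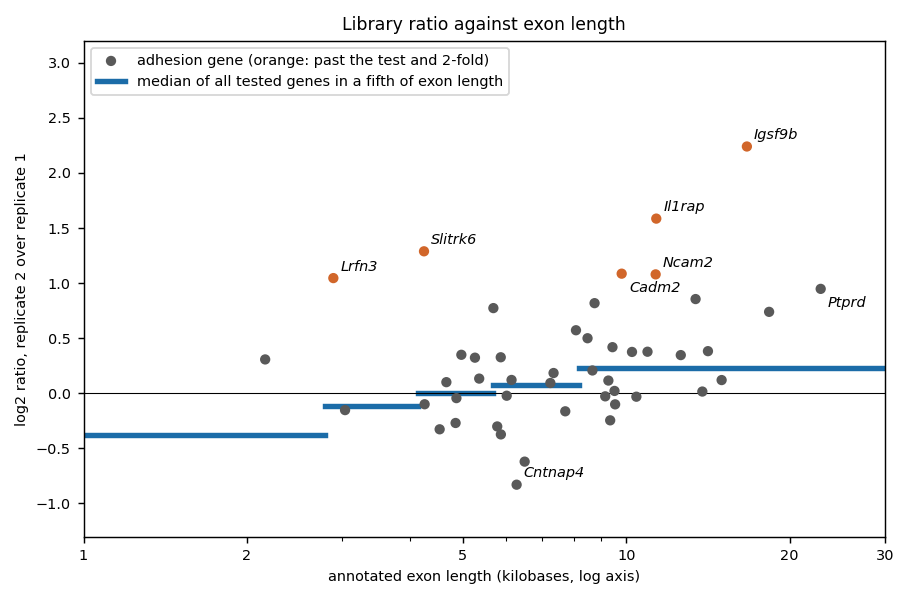
Log2 ratio of replicate 2 over replicate 1 against annotated exon length on a log axis for the 47 detected adhesion genes as points, with the median of all tested genes in each of 5 classes of exon length, equal in gene number, as blue lines. The blue lines step up from -0.38 to 0.23, and Igsf9b, Il1rap, Slitrk6 and Lrfn3 lie far above them.

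Start windows of the 5 called genes in the RefSeq table are shown because those genes passed the test between libraries. The letters CACGTG, which read the same on both strands, occur in the windows of Cadm2 and Slitrk6, in none of the other 3, in 4 of the members' 49 windows, and in 7.15% of all windows.
Cadm2, chr16:67620859-67621158, minus strand: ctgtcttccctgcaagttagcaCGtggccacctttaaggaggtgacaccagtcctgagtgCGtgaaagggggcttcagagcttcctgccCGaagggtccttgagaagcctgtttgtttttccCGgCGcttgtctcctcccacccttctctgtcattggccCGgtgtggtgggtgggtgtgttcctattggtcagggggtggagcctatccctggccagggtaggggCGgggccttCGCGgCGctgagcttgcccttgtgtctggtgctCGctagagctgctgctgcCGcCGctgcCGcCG
Ncam2, chr16:81200447-81200746, plus strand: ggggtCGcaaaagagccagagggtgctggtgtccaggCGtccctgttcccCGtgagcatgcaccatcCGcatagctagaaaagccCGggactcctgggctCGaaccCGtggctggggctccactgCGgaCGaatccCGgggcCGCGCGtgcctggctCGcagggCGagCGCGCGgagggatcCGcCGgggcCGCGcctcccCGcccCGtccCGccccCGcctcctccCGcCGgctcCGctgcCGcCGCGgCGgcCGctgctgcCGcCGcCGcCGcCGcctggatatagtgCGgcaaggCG
Slitrk6, chr14:110755100-110755399, minus strand: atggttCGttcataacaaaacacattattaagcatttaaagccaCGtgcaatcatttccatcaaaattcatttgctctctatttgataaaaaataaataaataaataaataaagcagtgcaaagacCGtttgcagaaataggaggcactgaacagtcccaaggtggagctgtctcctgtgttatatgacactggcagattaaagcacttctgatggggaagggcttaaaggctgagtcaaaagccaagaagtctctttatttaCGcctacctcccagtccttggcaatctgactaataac
Il1rap, chr16:26581455-26581754, plus strand: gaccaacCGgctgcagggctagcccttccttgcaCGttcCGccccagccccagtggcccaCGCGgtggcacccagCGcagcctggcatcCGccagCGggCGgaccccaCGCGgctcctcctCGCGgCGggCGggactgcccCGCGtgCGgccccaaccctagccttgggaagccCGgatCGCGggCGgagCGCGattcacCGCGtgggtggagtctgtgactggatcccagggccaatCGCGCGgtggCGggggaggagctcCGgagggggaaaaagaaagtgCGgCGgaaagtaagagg
Lrfn3, chr7:30362723-30363022, minus strand: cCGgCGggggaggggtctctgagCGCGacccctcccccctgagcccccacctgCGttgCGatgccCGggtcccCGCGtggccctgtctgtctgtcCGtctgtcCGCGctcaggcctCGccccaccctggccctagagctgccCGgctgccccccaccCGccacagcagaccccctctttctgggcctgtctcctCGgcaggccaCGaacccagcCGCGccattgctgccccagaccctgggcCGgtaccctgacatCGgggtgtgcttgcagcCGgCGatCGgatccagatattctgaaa
They hold 15, 41, 4, 33 and 24 CG dinucleotides in that order. Over the 49 windows of the 35 members in the RefSeq table the median was 14, and 27 held 10 or more, as did 43.5% of all windows. TGACGTCA, also the same on both strands, was found in 4 of the 49 and in 1.79% of all windows, and TATAAA, on either strand, in 2 of the 49 and in 13.6%. Such matches describe letters in a window and not use of a site.

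A further set of synaptic adhesion genes outside the list was also largely present. Of 58 such genes, 51 were detected and 37 reached 10 CPM in both libraries. Those with the most reads included Lrrc4c, a netrin-G partner, at 427 and 362 CPM, Adam22, a receptor of Lgi1, at 267 and 313 CPM, the latrophilin gene Adgrl1 at 271 and 297 CPM, Nrcam of the L1 family at 175 and 282 CPM, and Adam23 at 209 and 236 CPM. Their median log2 ratio was 0.25. In this set 4 of 51 (7.84%) were called higher in replicate 2, below the 9.57% of all detected genes. They were Cntnap5c at 2.16, Il1rapl2 at 1.58, Nptx2 at 1.11 and Lgi2 at 1.05, all under 15 CPM. Called higher in replicate 1 were 2 (3.92%, below the 7.78% of all detected genes), Igsf21 at -1.93 and Ntng2 at -1.63, both low.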

How the data were processed

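The deposited files hold 1 table of raw read counts per gene symbol for each of 2 libraries. Per the submitters' processing notes, STAR 2.0.0e and HTSeq were used with mm10. The annotation and strand setting are not stated, so reads of overlapping or antisense genes cannot be told apart. Rows naming no gene were left out: reads outside exons (22.8% and 31.0% of all reads), with several alignments (27.9% and 13.6%) and ambiguous (1.84% and 2.08%).

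CPM was computed over named genes. Exon lengths and coordinates came from GENCODE M21 (GRCm38), which all 49 members and 11465 of 12374 detected genes matched. Merged exons may be longer than the transcripts used. Single levels carry exact Poisson and shares exact Clopper-Pearson intervals, for counting error only: without molecular identifiers, reads may be copies of one molecule. TMM factors came from edgeR 4.0.16, used with R 4.3.3, and the binomial test from scipy 1.17.1, tested on simulated data.

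All members with 10 CPM or more in both libraries and family leaders were named, then the 6 highest and all called genes of a list of other adhesion genes and the 2 highest of each cell type list. Of these, 1 gene and some markers are not reported here. Members, lists and motifs were chosen with earlier results of these data known. RefSeq start windows were matched by symbol, and those of members on chromosome 18 were left out.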

Additional observations from a re-analysis of the deposited data

How the results depend on the processing

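The 2 libraries form a single group, so no difference between conditions can be tested, and depth limits only the lowest genes, such as Lrfn1 and Lrfn2. No paired analysis was possible because there is 1 group. The 6 members called higher in replicate 2 were the same genes with total reads or DESeq2 size factors as scaling and with either filter on low counts, and 4 of them held with the trend on exon length removed. With a 1.5-fold limit, 11 of the 47 tested members were called higher in replicate 2 and 2 in replicate 1, up from 6 and 0. Over all 12374 detected genes the counts rose too, to 2394 and 2343 in place of 1184 and 963. With no filter on low counts, 18929 genes were tested in place of 12374, among them all 49 members. Of the members, 1, Lrfn2, was called higher in replicate 1. Over all 18929 genes, 3838 and 1943 were called higher in replicates 2 and 1. The members' median log2 ratio stayed between 0.07 and 0.19 under the alternatives for scaling, filter and length. Its place against all genes did not: with no filter on low counts the median over all tested genes was 0.16, above the members' 0.13. Under the other alternatives for scaling, filter and length the all-gene median was below the members' median. Members detected ranged from 47 to 48 without 1 library, and those at 10 CPM or more from 42 to 43. With Rn45s, the most abundant gene, left out of the library size, 40 members reached 10 CPM in place of 39. The mean level of Clstn1 then rose from 254 to 272 CPM and that of Nrxn3 from 609 to 651 CPM. Of the 75 values of family differences under alternatives, 3 changed sign: Ptprs minus Ptprd at -0.44 as plain CPM and -0.25 without replicate 1 (0.58 without replicate 2), and Nlgn2 minus Nlgn3 at -0.11 as plain CPM. The cause of these changes was not tested. With the longest transcript as the length, an alternative for the member order and family sums chosen after seeing the data, Clstn1 moved from place 1 to 3 in both libraries, and the planned Il1rapl1 minus Il1rap difference fell from 1.78 to 0.48.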
